A study of Mus musculus with 6 samples.

Results

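The genes described here encode structural proteins of the cardiac sarcomere and of the Z-disc, 42 genes chosen by name out of the 55401 genes in the deposited table. They were sorted by place into the thin filament (9 genes), the thick filament with titin and its assembly factors (6), the M-band (4) and the Z-disc with its attached proteins (23). All 42 were found, each as 1 gene, and all 42 passed the filter on low counts. The hearts came from C57BL/6 mice aged 6 to 8 weeks. One group of 3 mice had been given angiotensin II (Ang II), a vasoconstrictor peptide hormone whose infusion makes mice hypertensive and enlarges the heart. The other group was 3 mice labelled as control, with no vehicle or sham procedure named. Poly(A) RNA of each heart was sequenced as 1 library, and the dose, route and duration of Ang II are not given in the labels. Gene positions are those of the deposited table, which for 29 of the 42 members are identical to GENCODE M21 (GRCm38). The comparison asks how transcripts of the contractile apparatus differed after Ang II.

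The sarcomere is the repeating unit of the myofibril. Actin-based thin filaments, switched by calcium through troponin and tropomyosin, slide along myosin-based thick filaments, which are crosslinked at the M-band. Thin filaments of neighbouring sarcomeres are tied together at the Z-disc by α-actinin, and the giant protein titin spans from Z-disc to M-band as a spring. Z-disc proteins also take part in sensing load, and mutations in many of these genes cause cardiomyopathy in humans.

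Libraries held 51202916 to 63564869 estimated counts, and single members held 4 to 554968 counts in a library. Levels between hearts are given as CPM, a gene's share of its library's counts after scaling (factors from 0.795 to 1.15); levels between genes are given as FPKM, which is also per length. Ang II heart 1 stood apart from the other 5 libraries on the first principal component (41.9% of the variance; -120 against 19.8 to 31.9), and Ang II hearts 2 and 3 were the most alike pair of a group, with a chi-square per degree of freedom of 34.1 against 61.9 to 482 for the other pairs. Among markers of other cells, the summed FPKM of 6 red blood cell genes was 603 to 639 in Ang II hearts against 1132 to 2011 in control hearts. The sum of 6 endothelial genes was 58.8 to 89.1 FPKM against 82.3 to 121. On the CPM scale each of these 6 was lower in every Ang II heart than in every control heart (9.21% of all genes). Their median log2 change was -0.46, and 4 were at an unadjusted p under 0.05 (3.94% of all genes). By edgeR 0 passed after adjustment. The sum of 8 cardiomyocyte genes outside the sarcomere was 6994 to 8183 in Ang II hearts against 2883 to 5910 in control hearts, most of it from the myoglobin gene Mb, and their median log2 change was 0.22. Smooth muscle genes summed to 72.0 to 83.6 against 57.6 to 79.2, fibroblast genes to 26.1 to 86.4 against 55.9 to 84.5, and macrophage genes to 43.2 to 77.3 against 36.7 to 60.5. Skeletal muscle genes summed to 1.48 to 2.46 against 1.48 to 1.62, and 2 of the 10, the fast myosin gene Myh2 and the parvalbumin gene Pvalb, were listed at 0 in every library. Lower values without overlap were also seen by CPM for 5 of 6 red blood cell genes. The same held for 2 of 6 fibroblast genes and 2 of 6 macrophage genes. In these lists 5, 2 and 1 genes, all lower, reached an unadjusted p under 0.05 by edgeR. Of the 8 cardiomyocyte genes, 3 were higher without overlap (7.97% of all genes) and 1 reached that p (3.57%). Smooth and skeletal muscle genes had 0 of either kind. In all these lists 0 genes passed by edgeR after adjustment. The part of these differences in the results was not tested. In bulk tissue, fewer cells of a type and less RNA per cell cannot be told apart.

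Most sarcomere and Z-disc genes stood somewhat higher in Ang II hearts, and none of them passed the test over all genes. Of the 42 genes, 37 had a log2 change above 0 and 5 below, with a median of 0.30, where 50.9% of the 16759 genes tested lay above 0 and their median was 0.01. By the edgeR quasi-likelihood test, adjusted by Benjamini-Hochberg across all genes, 0 of 42 passed the threshold of an adjusted p under 0.05, against 6 of all genes (0.0358%). At an unadjusted p under 0.05, 7 members were higher (3.57% of all genes) and 0 were lower (3.94% of all genes). These 7 were Synpo2l, Pdlim3, Des, Trim54 and Csrp3 of the Z-disc, Ttn, and Lmod2 of the thin filament. DESeq2 on the same counts called 4 members, all higher, namely Des, Pdlim3, Synpo2l and Trim54, where it called 0.949% of all genes higher. Limma on log2(FPKM + 0.5) called 0 of the 40 members it could test (0.0248% of all genes), with 5 higher at an unadjusted p under 0.05 (3.19% of all genes). Limma with a quality weight per library called 6, all higher (1.12% of all genes), namely the same 4 with Flnc and Lmod2. In 12 members every Ang II heart lay above every control heart (7.97% of all genes), and in 1, Unc45b, every Ang II heart lay below (9.21% of all genes).

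The number of members called depended both on the test and on Ang II heart 1. The median of the 42 members relative to the control mean was 0.06 in Ang II heart 1, 0.31 in heart 2 and 0.27 in heart 3 on the scale of log2(CPM + 0.5), where all genes tested had -0.02, 0.00 and 0.00. Without heart 1, edgeR called 3 members, all higher (Lmod2, Pdlim3 and Twf2), against 0.527% of 17661 genes tested, and 21 members were higher at an unadjusted p under 0.05 (7.75% of all genes) and 0 lower (7.6% of all genes). DESeq2 without heart 1, a choice made after seeing the data, called 15 members, all higher (4.09% of all genes). These fits rest on 2 Ang II libraries, the most alike pair of a group. In 10 members heart 1 lay under 0.5 times the mean of hearts 2 and 3 (15.8% of all genes), and in 6 it lay over 1.5 times that mean (23.2% of all genes). Over the 42 members, the ratio of heart 1 to hearts 2 and 3 had a Spearman's rho of -0.37 with the length of the longest annotated transcript, and over 16739 genes a rho of -0.27. Genes of 1 library are not independent, and the part of transcript length in these differences was not tested.

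**Figure D1:**
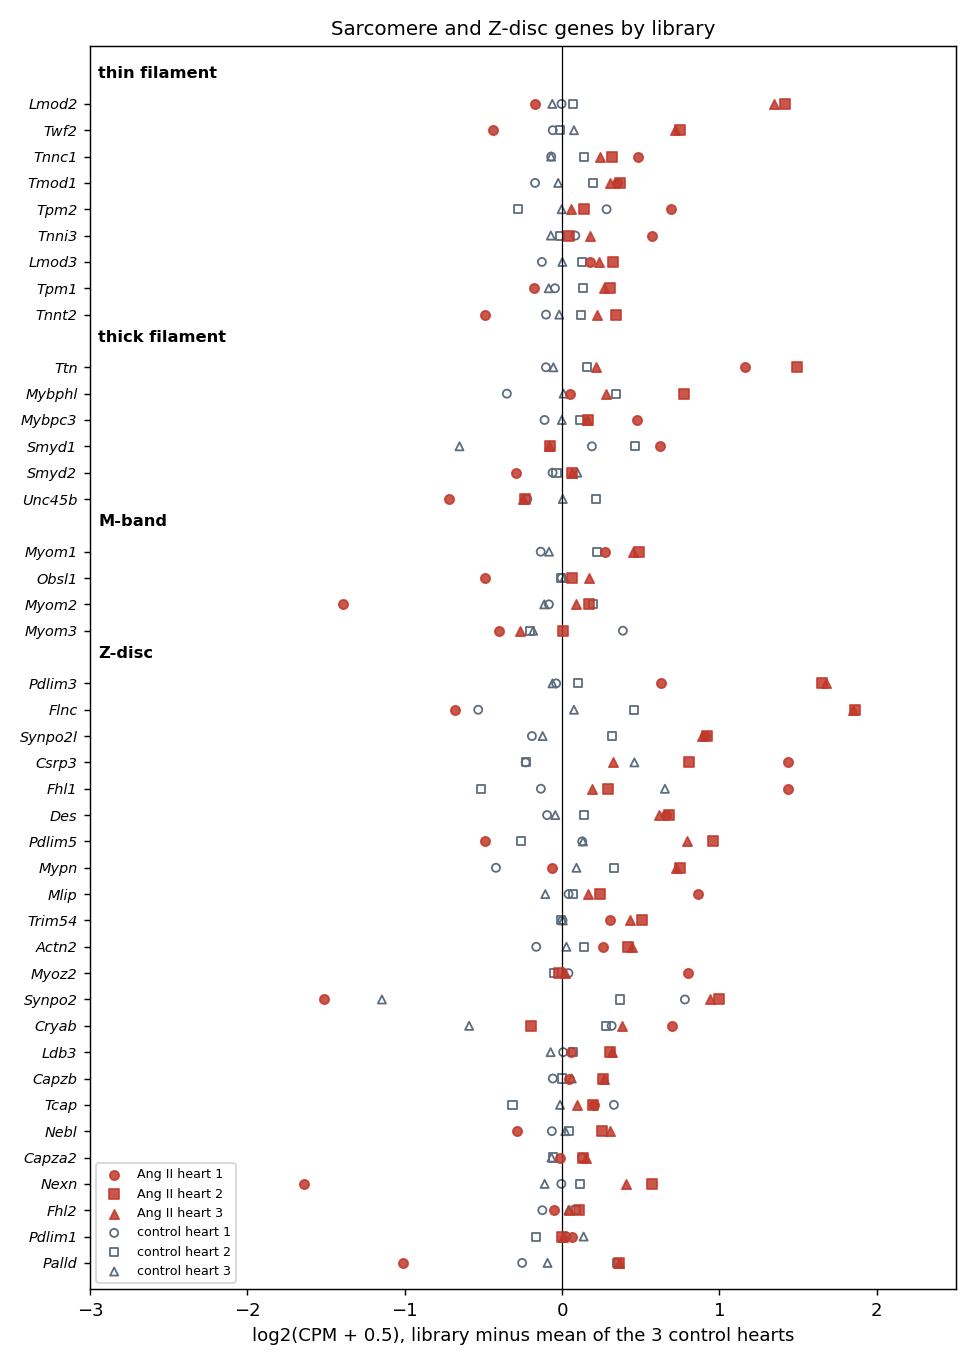
Each gene's log2(CPM + 0.5) in each library minus its mean over the 3 control hearts, with genes grouped by place in the sarcomere; filled red marks are Ang II hearts, open grey marks control hearts. Ang II hearts 2 and 3 lie close together and mostly right of 0, while Ang II heart 1 lies left of 0 for genes such as Myom2, Nexn and Palld and far right for Csrp3 and Fhl1.

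Spread between hearts was narrower for these genes than for all genes tested, which were not matched to them on level. The part of level in this difference was not tested. The median coefficient of variation of CPM was 22.2% over Ang II hearts and 9.43% over control hearts for the 42 members, and 27.7% and 15.96% for all genes tested. The closest control values were those of Trim54, with a coefficient of 0.407%, and the widest those of the low-level gene Mybphl, with 68.8%.

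Levels per length ran over 4 orders of magnitude between genes. Troponin C (Tnnc1) had the highest FPKM, at 2520.5 ± 205 in Ang II hearts and 1954 ± 489 in control hearts (mean ± SD, n = 3 each, here and below), followed by troponin I (Tnni3) at 1906 ± 111 and 1543 ± 225 and by Tcap at 1312 ± 179 and 1126 ± 61.4. Tnnt2, Tpm1, Cryab, Mybpc3 and Des formed the next tier, with control means from 327 FPKM for Des to 742 for Tnnt2; neighbours in that order overlapped in control hearts, while Des and Tnnt2 did not. Mybphl and Myom3 stood at the other end, at 0.364 ± 0.232 and 0.263 ± 0.0814 FPKM in Ang II hearts and 0.197 ± 0.160 and 0.299 ± 0.0370 FPKM in control hearts. Summed FPKM of the thin filament genes was 5405, 6994 and 7022 in Ang II hearts 1, 2 and 3 and 4096, 6330.0 and 5112 in control hearts 1, 2 and 3. The Z-disc genes summed to 3643, 4255 and 4310.5 FPKM in Ang II hearts against 2776, 3531 and 3152.5 in control hearts. Control heart 1, which had the lowest scaling factor, was lower on the FPKM scale than on the CPM scale relative to the other control hearts.

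**Figure D2:**
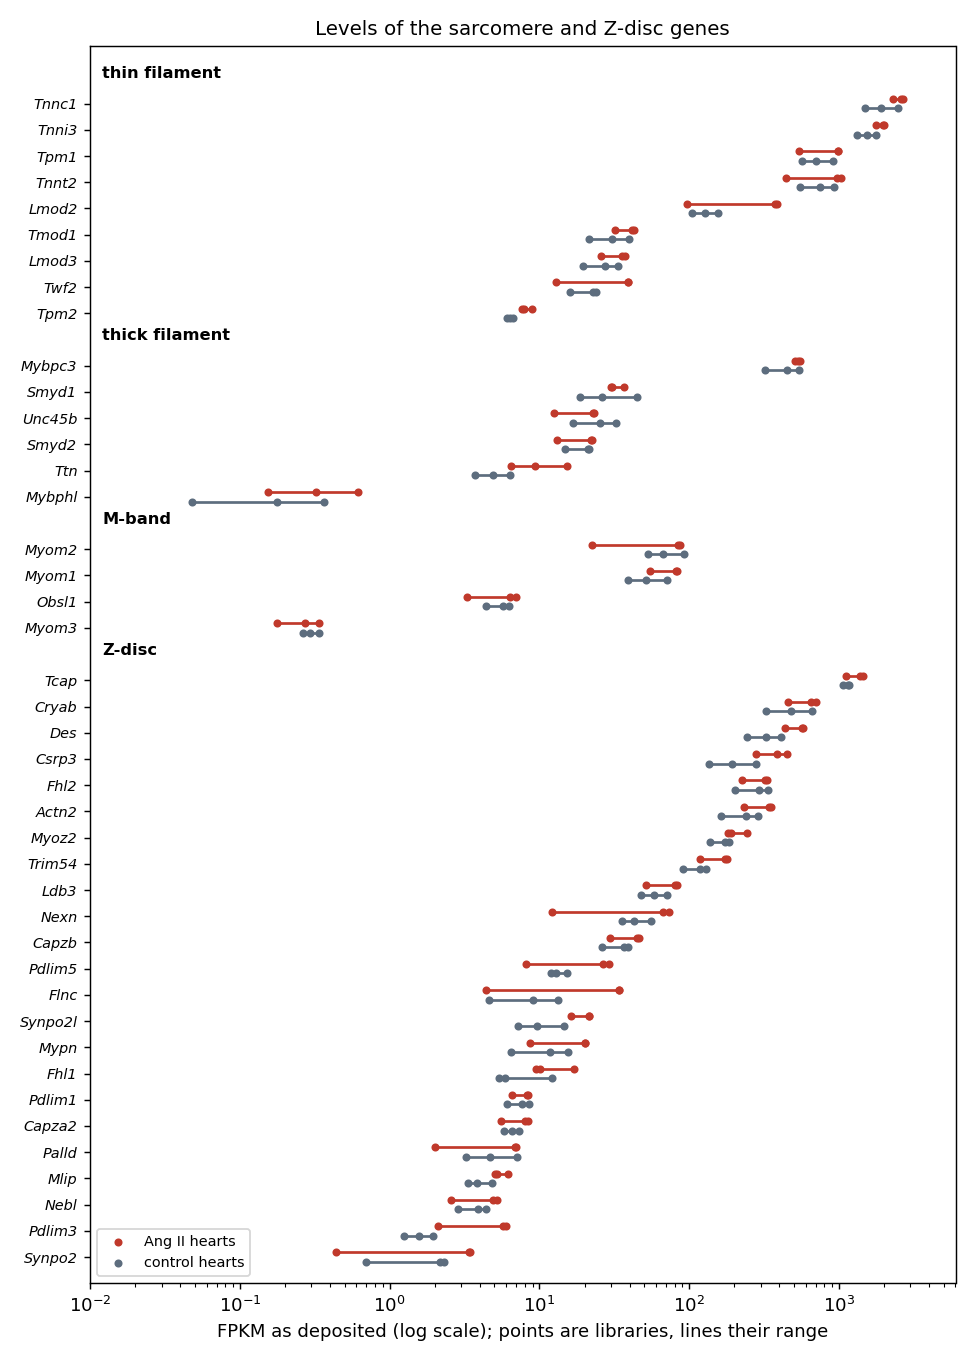
Deposited FPKM of each gene on a log axis, grouped by place in the sarcomere and ordered by mean level; points are libraries and lines their range, Ang II above control in each row. Tnnc1, Tnni3 and Tcap lie above 1000 FPKM in every library, and Mybphl and Myom3 below 1 FPKM.

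In the thin filament, all 9 genes had a log2 change above 0 (50.9% of all genes), with a median of 0.31. Lmod2 alone reached an unadjusted p under 0.05, where 3.57% of all genes were higher. Lmod2 (ENSMUSG00000029683, chr6:24597762-24605414) encodes leiomodin 2, which lengthens cardiac thin filaments at their pointed ends. It stood at 248, 747 and 712 CPM in Ang II hearts 1, 2 and 3, against 279, 292 and 267 CPM in control hearts 1, 2 and 3. Hearts 2 and 3 thus lay above every control heart and heart 1 below every control heart. The log2 change was 1.03 (SE 0.40; adjusted p = 0.630 by edgeR); it was 1.39 (SE 0.08) without heart 1 and then passed. Twf2, the actin monomer-binding and barbed-end capping protein twinfilin 2, had the same shape, at 38.9, 89.5 and 87.5 CPM in Ang II hearts against 50.8, 52.4 and 55.8 CPM in control hearts. Its log2 change was 0.44 (SE 0.31), and 0.74 (SE 0.08) without heart 1, when it also passed.

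The other pointed-end genes varied less. Tmod1, which encodes the cap tropomodulin 1, stood at 164, 166 and 159 CPM in Ang II hearts and 114, 147 and 126 CPM in control hearts, without overlap. Lmod3, a second leiomodin better known from skeletal muscle, stood at 73.1, 80.9 and 75.9 CPM against 58.9, 70.5 and 64.5 CPM, also without overlap. Their log2 changes were 0.33 (SE 0.15) and 0.25 (SE 0.14), and neither passed. Part of Tmod1 (32.6% of its exon bases) overlaps exons of Tstd2 on the other strand, which held 21 to 594 counts against 5209 to 11643 for Tmod1; whether the libraries kept strand is not given in the sources used here.

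The troponin complex was uneven in Ang II heart 1. Tnnc1 (ENSMUSG00000091898, chr14:31208312-31211729), the calcium-binding subunit, stood at 3076, 2749 and 2603 CPM in Ang II hearts against 2102, 2431 and 2101 CPM in control hearts. Its groups did not overlap (log2 change 0.35, SE 0.17; adjusted p = 0.695 by edgeR). Tnni3 (ENSMUSG00000035458, chr7:4518305-4522794), the inhibitory subunit, stood at 5204, 3615 and 3953 CPM against 3708, 3472 and 3330.3 CPM (log2 change 0.28, SE 0.21), with heart 1 the highest of the 6. Tnnt2 (ENSMUSG00000026414, chr1:135836354-135852260), the subunit that ties the complex to tropomyosin, stood at 4447, 7893 and 7259 CPM against 5807, 6782 and 6155 CPM, with heart 1 the lowest of the 6 (log2 change 0.06, SE 0.26; adjusted p = 0.957 by edgeR). Within a library, the FPKM ratio of Tnnc1 to Tnnt2 was therefore 5.15 in Ang II heart 1 against 2.59 and 2.67 in hearts 2 and 3 and 2.70, 2.67 and 2.54 in control hearts. That of Tnni3 to Tnnt2 was 4.40 in heart 1, 1.72 and 2.05 in hearts 2 and 3, and 2.40, 1.92 and 2.03 in control hearts. Outside heart 1, both troponin ratios overlapped between the groups.

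Tpm1 was the most abundant of the 4 genes for tropomyosin, the coiled coil that covers myosin-binding sites on actin. Tpm1 (ENSMUSG00000032366, chr9:67022590-67049267) stood at 4507, 6315 and 6151 CPM in Ang II hearts against 4953, 5598 and 4819 CPM in control hearts (log2 change 0.14, SE 0.21; adjusted p = 0.884 by edgeR), with heart 1 below every control heart. Tpm2, β-tropomyosin, stood at 33.5, 22.7 and 21.4 CPM against 25.1, 16.9 and 20.5 CPM (log2 change 0.31, SE 0.24). The ratio of Tpm2 to Tpm1 by FPKM stayed between 0.00671 and 0.0166 in all 6 libraries. Tpm4 and Tpm3, which are not members, stood at 21.1 to 25.8 and 5.33 to 8.65 FPKM in Ang II hearts and 17.2 to 26.6 and 5.97 to 8.44 FPKM in control hearts, against 539 to 989 FPKM for Tpm1 in Ang II hearts and 563 to 910.5 FPKM in control hearts.

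In the thick filament group, 4 of 6 genes had a log2 change above 0 (50.9% of all genes) and 2 below, with a median of 0.20. Ttn (ENSMUSG00000051747, chr2:76703980-76982547) encodes titin, the giant spring and template of the thick filament, and its longest annotated transcript has 106824 bases. It stood at 1412, 1778 and 734 CPM in Ang II hearts against 588, 705 and 607 CPM in control hearts. Every Ang II heart lay above every control heart, but heart 3 stood only just above control heart 2 and far below Ang II heart 2. The log2 change was 1.05 (SE 0.33; adjusted p = 0.536 by edgeR). Per length, Ttn was at 10.4 ± 4.55 FPKM in Ang II hearts and 4.97 ± 1.32 FPKM in control hearts, below most other members.

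Mybpc3 (ENSMUSG00000002100, chr2:91118144-91136510), cardiac myosin-binding protein C, which tunes how myosin heads engage actin, stood at 2728, 2199 and 2196 CPM in Ang II hearts against 1819, 2127 and 1963 CPM in control hearts (log2 change 0.27, SE 0.18; adjusted p = 0.759 by edgeR). The groups did not overlap, though hearts 2 and 3 lay close to control heart 2. Mybphl, an atrial relative of the myosin-binding proteins, held 4 to 55 counts in a library and stood at 0.276, 0.782 and 0.408 CPM against 0.0875, 0.450 and 0.254 CPM, with overlap. The 6 atrial marker genes summed to 7.37 to 9.18 FPKM in Ang II hearts against 5.79 to 6.60 FPKM in control hearts, most of it from Stard10. The other atrial genes were low in level. Myl4 stood at 3.22, 4.39 and 4.31 CPM in Ang II hearts against 1.69, 1.23 and 1.15 CPM in control hearts. Sln stood at 0.230, 0.569 and 0.253 CPM against 0, 0 and 0.0727 CPM. Both were higher in Ang II hearts without overlap (7.97% of all genes). Dkk3 stood at 1.27, 2.72 and 2.66 CPM against 1.23, 1.52 and 1.07 CPM, with overlap. Of the 4 atrial genes that could be tested, 4 had a log2 change above 0 (50.9% of all genes). At an unadjusted p under 0.05, 2 were higher (3.57% of all genes), Myl4 and the low-level Sln, and by edgeR 0 passed after adjustment. Myl7 and Bmp10 did not pass the filter on low counts. Myl7 was at 0.225, 0.731 and 1.20 FPKM in Ang II hearts against 0.208, 0 and 0.106 FPKM in control hearts. Bmp10 was at 0, 0.0242 and 0.0294 FPKM in Ang II hearts and at 0 in every control heart. The part of atrial tissue in the Mybphl values was not tested.

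Of the assembly factors of the thick filament, Unc45b was separated between the groups and the others overlapped. Unc45b, a chaperone that folds the myosin head, stood at 72.4, 101 and 101 CPM in Ang II hearts against 102, 139 and 119.7 CPM in control hearts. It was the 1 member whose Ang II hearts all lay below all control hearts, by a narrow margin (log2 change -0.40, SE 0.20; adjusted p = 0.699 by edgeR). Smyd1, a muscle methyltransferase needed for myofibril assembly, stood at 217, 134 and 133 CPM against 161, 194 and 89.4 CPM. Smyd2, a methyltransferase that modifies the chaperone Hsp90, stood at 46.1, 59.1 and 59.1 CPM against 54.3, 55.2 and 60.6 CPM. Both overlapped between the groups, with log2 changes of 0.12 (SE 0.34) and -0.05 (SE 0.16). Of the exon bases of Smyd2, 30.0% overlap the predicted gene Gm37422 on the other strand, with 206 to 918 counts.

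M-band genes had 1 of 4 log2 changes above 0 (50.9% of all genes) and a median of -0.15. Without Ang II heart 1, Myom2 and Obsl1 also lay above 0. Myom1 (ENSMUSG00000024049, chr17:71002633-71126855), myomesin 1, the main crosslinker of thick filaments at the M-band, stood at 733, 852 and 828 CPM in Ang II hearts against 552, 706 and 572 CPM in control hearts, without overlap (log2 change 0.40, SE 0.17; adjusted p = 0.664 by edgeR). Myom2 (ENSMUSG00000031461, chr8:15057653-15133541), a myomesin of adult heart and fast muscle, stood at 257, 759 and 715 CPM against 635, 773 and 622 CPM. Heart 1 held well under every other heart, and hearts 2 and 3 lay within the control range (log2 change -0.23, SE 0.40; adjusted p = 0.901 by edgeR; 0.12, SE 0.12, without heart 1). Obsl1, an obscurin-like linker of titin and myomesin, stood at 35.9, 53.0 and 57.0 CPM against 50.6, 50.4 and 51.2 CPM. Myom3, the third myomesin, stayed at 1.40 to 2.02 CPM in Ang II hearts and 1.68 to 2.78 CPM in control hearts. Of the exon bases of Myom1, 1.98% overlap Myl12a on the other strand, which held 16278 to 33930 counts against 25207 to 59914 for Myom1. The part of this overlap in the Myom1 values was not tested.

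The balance between the first 2 myomesins differed between the groups in every heart. The FPKM ratio of Myom2 to Myom1 was 0.413, 1.05 and 1.02 in Ang II hearts 1, 2 and 3 and 1.36, 1.29 and 1.29 in control hearts 1, 2 and 3. All Ang II ratios were thus under all control ratios, also without heart 1, and control hearts varied little (1.31 ± 0.0415). It was 1 of 12 ratios between partner genes that were computed, of which 3 did not overlap between the groups. Of single genes by CPM, 7.97% were higher without overlap and 9.21% lower, and no ratio was computed for other gene pairs. Myom1 and Pdlim3, which enter 2 of the 3 ratios, also did not overlap on their own. Comparing 3 hearts against 3 cannot reach a p under 0.05 in an exact permutation test, and none was run.

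**Figure D3:**
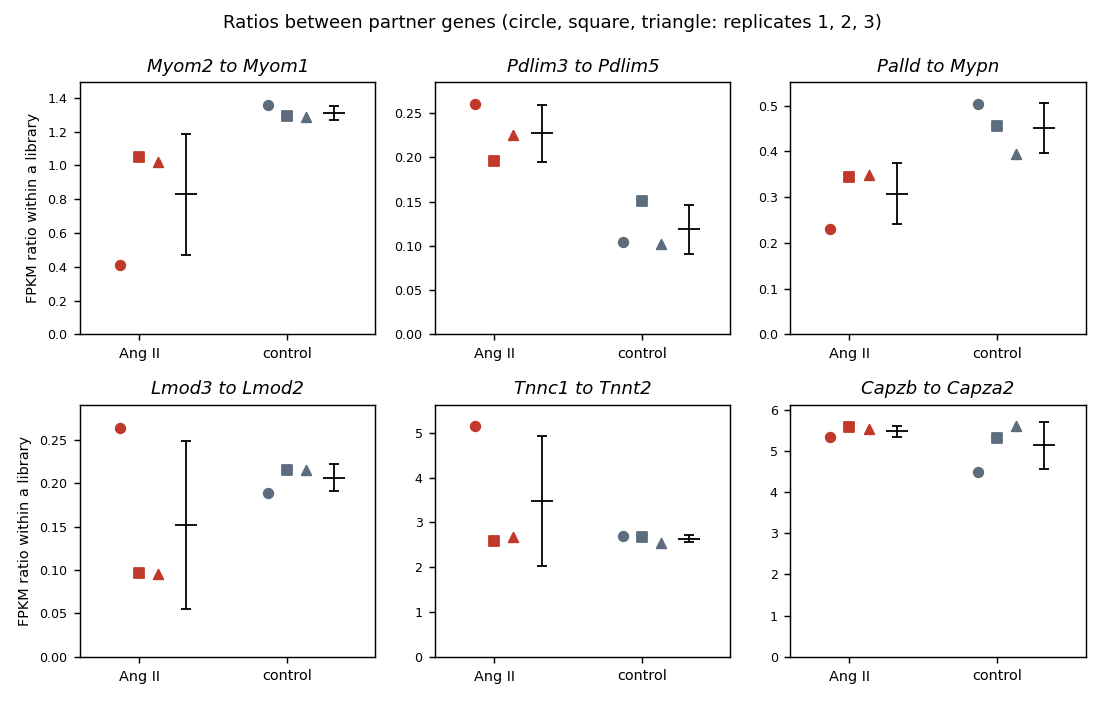
FPKM ratios between partner genes within each library, Ang II hearts left and control hearts right; marks are replicates 1, 2 and 3, and the bar is the mean with its SD. Myom2 to Myom1, Pdlim3 to Pdlim5 and Palld to Mypn do not overlap between the groups; for Lmod3 to Lmod2, Ang II hearts 2 and 3 lie below every control heart and heart 1 above them; for Tnnc1 to Tnnt2, Ang II heart 1 alone is high; Capzb to Capza2 overlaps.

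Z-disc genes, 23 of the 42 members, had all 23 log2 changes above 0 (50.9% of all genes), with a median of 0.32. By edgeR, 5 of them were higher at an unadjusted p under 0.05 (3.57% of all genes), of 7 such members. Synpo2l (ENSMUSG00000039376, chr14:20658946-20668306), whose product is a cytoskeletal Z-disc protein related to synaptopodin, had the smallest p of all members. It stood at 97.1, 97.8 and 95.4 CPM in Ang II hearts against 44.9, 64.1 and 47.1 CPM in control hearts. The 3 Ang II hearts were nearly equal, heart 1 included, and all lay well above the control range (1.86-fold; log2 change 0.89, SE 0.18; adjusted p = 0.329 by edgeR). Its relative Synpo2 (myopodin, which bundles actin) behaved otherwise, at 7.41, 44.5 and 42.9 CPM against 38.3, 28.6 and 9.71 CPM, with 1 low heart in each group.

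Des (ENSMUSG00000026208, chr1:75360329-75368579), which encodes desmin, the intermediate filament that links Z-discs to one another and to the membrane, stood at 2102, 2133 and 2038 CPM in Ang II hearts against 1244, 1464 and 1290.0 CPM in control hearts. The Ang II hearts again lay close together and apart from all control hearts (1.57-fold; log2 change 0.65, SE 0.16; adjusted p = 0.449 by edgeR). Trim54 (ENSMUSG00000062077, chr5:31116712-31137630), a ubiquitin ligase of muscle that binds microtubules and the Z-disc (MuRF3), stood at 219.7, 253 and 240.1 CPM against 178, 177 and 179 CPM, and no Ang II heart came near the control values (1.34-fold; log2 change 0.42, SE 0.14; adjusted p = 0.557 by edgeR). Of the exon bases of Trim54, 26.6% overlap the predicted gene Gm15469 on the other strand, with 25 to 196 counts against 8152 to 17823 for Trim54. Des, Synpo2l and Trim54 were called by DESeq2 and by limma with library weights, not by edgeR.

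LIM-domain proteins of the Z-disc, which carry signals between the Z-disc and the nucleus or anchor kinases, include Csrp3, Fhl1, Fhl2, Ldb3 and the 3 Pdlim members, none of which passed by edgeR with all libraries. Pdlim3 (ALP; ENSMUSG00000031636, chr8:45885461-45919548), which binds α-actinin, stood at 14.1, 29.1 and 29.7 CPM in Ang II hearts against 8.69, 9.61 and 8.54 CPM in control hearts. All Ang II hearts lay above all control hearts, heart 1 by the least (2.72-fold; log2 change 1.44, SE 0.30; adjusted p = 0.337 by edgeR). Without heart 1 the log2 change was 1.72 (SE 0.10) and it passed. Pdlim5 (ENH), a scaffold for protein kinases at the Z-disc, stood at 93.2, 256 and 228 CPM against 143, 109 and 144 CPM (log2 change 0.54, SE 0.37), with heart 1 below the control hearts. Pdlim1 (CLP36) showed no such shape, at 44.7, 42.7 and 42.9 CPM against 43.6, 38.0 and 47.0 CPM (log2 change 0.02, SE 0.14). The FPKM ratio of Pdlim3 to Pdlim5 was 0.260, 0.196 and 0.225 in Ang II hearts and 0.104, 0.151 and 0.102 in control hearts, without overlap.

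Csrp3 (ENSMUSG00000030470, chr7:48830398-48848033) encodes muscle LIM protein, which is known as part of the load-sensing machinery at the Z-disc. It stood at 1561, 1011 and 723 CPM in Ang II hearts against 491, 493 and 793 CPM in control hearts. The groups overlapped, since control heart 3 lay above Ang II heart 3 (1.85-fold; log2 change 0.89, SE 0.34; adjusted p = 0.627 by edgeR), and without Ang II heart 1 the log2 change was 0.55 (SE 0.26). Fhl1 (ENSMUSG00000023092, chrX:56731787-56793346), a LIM protein that binds titin's spring region, stood at 81.8, 36.8 and 34.2 CPM against 27.2, 20.8 and 47.4 CPM. Heart 1 was again the highest and control heart 3 the highest of the controls (log2 change 0.68, SE 0.44; adjusted p = 0.756 by edgeR; 0.16, SE 0.34, without heart 1). Fhl2, the heart's abundant FHL protein, stood at 552, 616 and 590.0 CPM against 524, 607 and 588 CPM (log2 change 0.03, SE 0.15). The ratio of Fhl1 to Fhl2 by FPKM was 0.0756, 0.0305 and 0.0296 in Ang II hearts and 0.0265, 0.0174 and 0.0411 in control hearts.

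**Figure D4:**
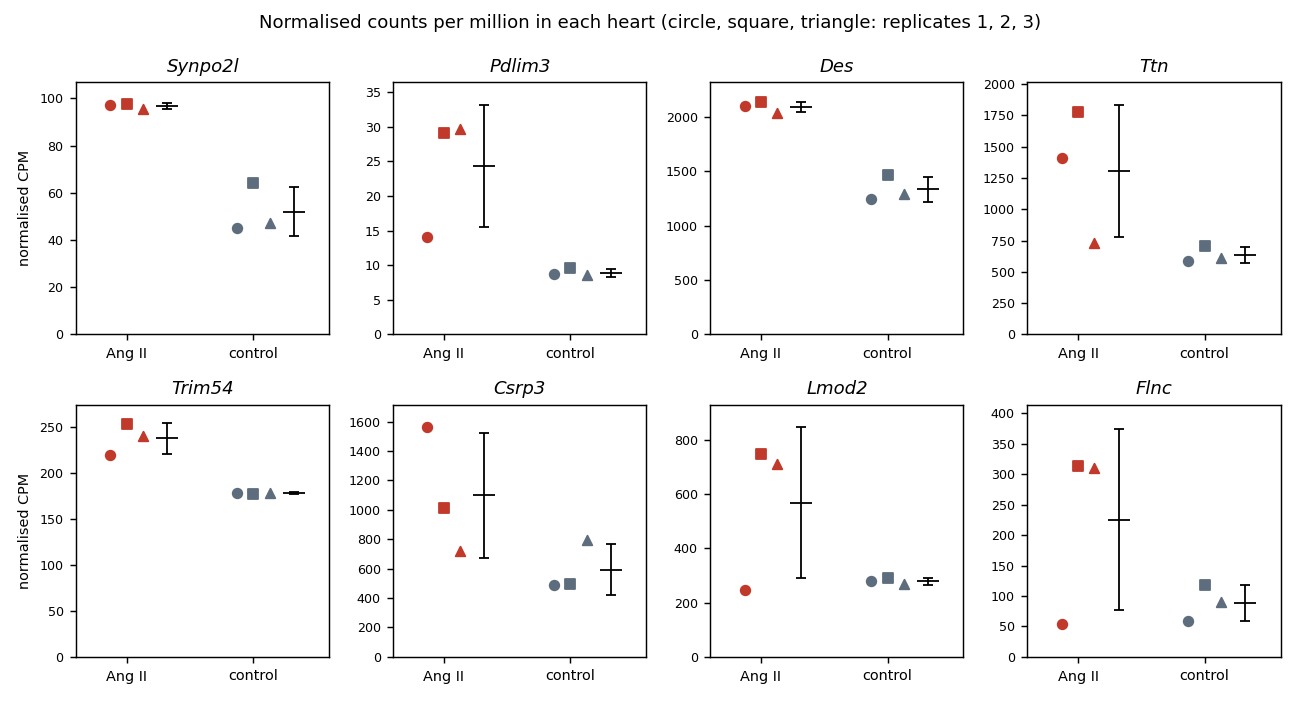
CPM in each heart for the 7 members at an unadjusted p under 0.05 and for Flnc, Ang II left and control right in each panel; the bar is the mean with its SD (n = 3). The 3 Ang II hearts lie close together for Synpo2l and Des, heart 1 is low for Pdlim3, Lmod2 and Flnc, and it is high for Csrp3.

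Flnc (ENSMUSG00000068699, chr6:29433256-29461883), which encodes the muscle actin crosslinker filamin C, differed widely between Ang II hearts. It stood at 53.2, 313 and 310.4 CPM in Ang II hearts against 59.1, 118 and 90.4 CPM in control hearts. Hearts 2 and 3 lay far above every control heart and heart 1 below them all (log2 change 1.34, SE 0.64; adjusted p = 0.693 by edgeR; 1.81, SE 0.27, without heart 1, short of the threshold by edgeR). Flnc passed by limma with library weights and by DESeq2 without heart 1. Nexn, which encodes the actin-binding protein nexilin, had the same order at 59.7, 278 and 247 CPM against 186, 203 and 173 CPM. Its log2 change was 0.06 (SE 0.51), and 0.49 (SE 0.10) without heart 1.

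The core lattice of the Z-disc differed by small amounts. Actn2 (ENSMUSG00000052374, chr13:12269426-12340760), α-actinin 2, which crosslinks thin filaments, stood at 1133, 1269 and 1291 CPM in Ang II hearts against 845, 1043 and 966 CPM in control hearts, without overlap (log2 change 0.37, SE 0.16; adjusted p = 0.671 by edgeR). Tcap (ENSMUSG00000007877, chr11:98383811-98384953), telethonin, which joins 2 titin ends, stood at 1357, 1352 and 1263 CPM against 1484, 949 and 1170.2 CPM, with the Ang II hearts inside the control range (log2 change 0.14, SE 0.21; adjusted p = 0.883 by edgeR). Ldb3, a partner of α-actinin also called ZASP or Cypher, stood at 408, 485 and 489 CPM against 394, 411 and 373 CPM. Its Ang II heart 1 fell inside the control range and the other hearts of that group above it (log2 change 0.23, SE 0.15). Myoz2, calsarcin 1, an inhibitor of calcineurin at the Z-disc, stood at 1076, 610.4 and 626 CPM against 636, 597 and 624 CPM. Heart 1 alone was high there, and without it the log2 change was 0.00 (SE 0.08).

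The actin-binding relatives palladin and myopalladin, and the thin-filament anchor nebulette, were also lower in Ang II heart 1 than in hearts 2 and 3. Mypn stood at 65.0, 115 and 113 CPM in Ang II hearts against 50.7, 85.6 and 72.5 CPM in control hearts, and Palld at 26.5, 69.6 and 69.5 CPM against 45.2, 68.9 and 50.6 CPM. Their log2 changes were 0.49 (SE 0.29) and 0.01 (SE 0.38). The FPKM ratio of Palld to Mypn was 0.230, 0.343 and 0.348 in Ang II hearts and 0.504, 0.455 and 0.395 in control hearts, without overlap. Nebl, which encodes nebulette, stood at 50.5, 73.6 and 76.3 CPM against 59.0, 63.8 and 62.7 CPM. CapZ, which caps barbed ends in the Z-disc, has 2 subunits. The FPKM ratio of Capzb to Capza2 was 5.48 ± 0.133 in Ang II hearts and 5.14 ± 0.574 in control hearts, with overlap. That ratio cannot show a change that both subunits share. Capzb stood at 125, 146 and 147 CPM in Ang II hearts against 117, 122 and 127 CPM in control hearts. Capza2 stood at 42.1, 46.8 and 47.4 CPM against 46.5, 40.9 and 40.6 CPM. Both overlapped, with log2 changes of 0.19 (SE 0.14) for Capzb and 0.09 (SE 0.14) for Capza2. Without heart 1 both were higher without overlap (18.5% of all genes), and DESeq2 then called Capzb and not Capza2.

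Cryab (ENSMUSG00000032060, chr9:50751325-50756636), αB-crystallin, a small heat shock protein that shields titin and desmin, stood at 1248, 670.0 and 1001 CPM in Ang II hearts against 957, 932 and 511 CPM in control hearts. It varied within both groups, and they overlapped (log2 change 0.28, SE 0.33; adjusted p = 0.850 by edgeR). Of its exon bases, 17.0% overlap Hspb2 on the other strand, with 2124 to 3786 counts. Mlip, a lamin-interacting protein of muscle, stood at 71.3, 46.1 and 43.9 CPM against 40.1, 40.9 and 36.2 CPM, without overlap and with heart 1 the highest (log2 change 0.46, SE 0.22).

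Promoter sequence is shown for the 4 members called by DESeq2, whose groups did not overlap. Each run is the 250 bases before the RefSeq start site nearest to the deposited gene start, from the RefSeq table of GRCm38.p6, 5′ to 3′ on the gene's strand; capitals mark every match, on either strand, to MCAT (CATTCC), the E-box CAGCTG, the MEF2 site or the CArG box.
Synpo2l (chr14:20668355-20668604, minus strand): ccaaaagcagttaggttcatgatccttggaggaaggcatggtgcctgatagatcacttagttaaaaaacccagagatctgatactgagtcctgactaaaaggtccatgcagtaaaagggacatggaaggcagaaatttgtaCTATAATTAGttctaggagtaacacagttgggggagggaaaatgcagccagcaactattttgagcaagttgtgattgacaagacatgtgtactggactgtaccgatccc
Pdlim3 (chr8:45885237-45885486, plus strand): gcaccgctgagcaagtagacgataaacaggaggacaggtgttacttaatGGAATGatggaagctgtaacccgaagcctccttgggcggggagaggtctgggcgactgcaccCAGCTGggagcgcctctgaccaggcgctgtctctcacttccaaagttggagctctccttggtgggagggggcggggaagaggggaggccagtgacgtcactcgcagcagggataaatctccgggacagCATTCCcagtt
Des (chr1:75360042-75360291, plus strand): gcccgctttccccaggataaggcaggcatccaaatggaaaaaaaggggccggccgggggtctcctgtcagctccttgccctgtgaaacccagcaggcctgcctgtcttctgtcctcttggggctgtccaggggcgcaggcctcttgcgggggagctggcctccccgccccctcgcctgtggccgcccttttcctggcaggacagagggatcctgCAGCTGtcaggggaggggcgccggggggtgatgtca
Trim54 (chr5:31116362-31116611, plus strand): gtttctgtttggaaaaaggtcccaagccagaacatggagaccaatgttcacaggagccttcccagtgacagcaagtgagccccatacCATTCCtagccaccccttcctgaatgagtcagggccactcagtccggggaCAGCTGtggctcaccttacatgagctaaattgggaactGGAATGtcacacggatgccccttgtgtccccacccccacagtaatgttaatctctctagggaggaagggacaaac

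These motifs are bound in muscle by TEAD factors (MCAT), by basic helix-loop-helix factors (E-box), by MEF2 factors and by SRF (CArG box). Pdlim3 and Trim54 each held 2 MCAT matches and 1 E-box, Des held 1 E-box and Synpo2l held 1 MEF2 site. A promoter could be matched for 36 of the 42 members. Of these, 9 held MCAT (25.0%), against 12.6% of 27025 genes, and 9 held the E-box (25.0%), against 12.8%. The MEF2 site stood in 7 (19.4%), against 3.01% of genes, and the CArG box in 4 (11.1%), against 1.4%. The CArG box was in the windows of Myom1, Ldb3, Fhl1 and Fhl2, of which none reached an unadjusted p under 0.05. The start used lay 16924 bases from the deposited gene start for Myom1 and 47896 bases for Fhl1, against 1 base for Ldb3 and 223 for Fhl2, so 2 of these 4 windows belong to distant alternative starts. The MEF2 site was in the windows of Ttn, Mybpc3, Myom3, Myoz2, Synpo2, Synpo2l and Fhl2. Of these 7, Ttn and Synpo2l were higher at an unadjusted p under 0.05 in the same edgeR fit (3.57% of all genes). Whether the motifs bear on the changes was not tested. The shares over all genes used the first listed start of each gene. A match describes the letters in the window only.

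Other genes of the same structures, 68 in number, were listed for their place in the sarcomere or Z-disc. Of the 66 that could be tested, 44 had a log2 change above 0 and 22 below (50.9% of all genes lay above 0), with a median of 0.17. By edgeR 1 of them passed, Xirp1, whose product binds actin at intercalated discs, at 471 ± 84.6 CPM in Ang II hearts and 102 ± 13.3 CPM in control hearts (log2 change 2.21, SE 0.21; adjusted p = 0.0484). At an unadjusted p under 0.05, 13 were higher (3.57% of all genes) and 2 lower (3.94% of all genes). The next smallest p values were those of Acta1, skeletal α-actin, of Xirp2, a relative of Xirp1, and of Hspb1, a small heat shock protein. Acta1 stood at 504, 718 and 706 CPM in Ang II hearts against 135, 159.8 and 163 CPM in control hearts, short of the threshold at an adjusted p of 0.0517 by edgeR. Xirp2 stood at 361, 429.9 and 432 CPM against 137, 185 and 160.4 CPM, and Hspb1 at 208, 231 and 236 CPM against 121, 144 and 146 CPM. These 4 genes were picked by their p, and in all 4 every Ang II heart lay above every control heart. Of the 66 genes, 16 were higher without overlap (7.97% of all genes) and 6 lower (9.21% of all genes).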

How the data were processed

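One table of 55401 genes, holding 3 Ang II and 3 control hearts, was analysed. FPKM values are those deposited by the authors, in which 0.0001 marks a gene without signal. The deposited estimated counts are whole numbers, taken here as estimates, so counting error is approximate. The submitters' processing notes name Bowtie 0.12.2, HISAT2 2.0, StringTie 1.3.0 and mm8 but give no roles. Positions in the table equal GRCm38 (GENCODE M21) for 94.2% of shared gene IDs.

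Counts were rounded and fitted in R 4.3.3 by edgeR 4.0.16 (quasi-likelihood, TMM, filterByExpr; two-sided; Benjamini-Hochberg over 16759 genes). Standard errors were derived from the log2 change and its F statistic. DESeq2 1.42.0 and limma 3.58.1 were alternatives; limma on FPKM kept genes at 0.5 or more in at least 3 libraries. The edgeR step was run on simulated counts with known changes, a fixed dispersion and no outlying library. That run therefore does not show how the test performs on these hearts. P-values set the difference between the groups against the spread between these hearts only, and that spread was estimated with information shared across genes.

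Members, regions and lists were chosen with earlier results of these data known. Full statistics were set to be given for members at an unadjusted p under 0.05, for the most abundant and the smallest-p member of each region, and for 14 named genes, 19 in all. Plots used matplotlib 3.10.9 (Python 3.11.15).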

Additional observations from a re-analysis of the deposited data

How the results depend on the processing

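Among the 42 members, 0 calls by edgeR held with median-of-ratios, upper-quartile and library-total scaling, without mitochondrial genes, with no filter, with a threshold of 0.1 and with the replicate number as a block, and by limma on log2(FPKM + 0.5) and log2(FPKM + 1). The calls were 4 with DESeq2, 6 with library weights, and 0 to 3 with 1 library left out (3 without Ang II replicate 1, the only library whose removal gave any). DESeq2 without Ang II replicate 1, chosen after seeing the data, called 15 members. Over all genes the 6 calls became 0 with library totals alone, 0 with the replicate block, 12 with no filter, 276 with DESeq2, 3 with limma at either pseudocount, 348 with library weights, 15 at a threshold of 0.1, 0 to 129 with 1 library left out and 1319 with DESeq2 without Ang II replicate 1. Same-numbered hearts deviated from their group means with correlations of 0.0777, 0.112 and -0.0372, and other pairs of hearts with -0.128 to 0.0755. Ang II hearts 1 and 2 correlated best with the control heart of the same number, and Ang II heart 3 with control heart 2 (0.0755). The series' design text names no pairing, and the numbers were not taken as pairs.

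Of the 42 log2 changes, 11 changed sign under some alternative. With 1 library left out, they ranged from -0.0936 to 0.279 for Tnnt2, -0.151 to 0.367 for Smyd1, -0.108 to 0.0615 for Smyd2, -0.477 to 0.124 for Myom2, -0.189 to 0.119 for Obsl1, -0.00236 to 0.32 for Tcap, -0.0793 to 0.778 for Synpo2, -0.0593 to 0.0852 for Pdlim1, -0.0283 to 0.0774 for Fhl2, -0.286 to 0.489 for Nexn and -0.193 to 0.341 for Palld. Library weights gave 0.032 for Smyd2, 0.0858 for Myom2, 0.113 for Obsl1 and -0.0231 for Pdlim1. Library totals alone gave 0.0205 for Smyd2 and 0.0268 for Obsl1. Limma on log2(FPKM + 0.5) gave -0.165 for Nexn and -0.0274 for Palld. Limma on log2(FPKM + 1) gave -0.156 for Nexn and -0.0126 for Palld. The replicate block gave -0.194 for Nexn and -0.0971 for Palld. DESeq2 without Ang II replicate 1 gave -0.148 for Smyd1, 0.064 for Smyd2, 0.127 for Myom2 and 0.121 for Obsl1. The cause was not tested. Counts of 4 to 55 limited Mybphl.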
